A study of Lactuca sativa with 9 samples.

Results

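The genes described here are the EIN3-binding F-box gene EBF2 and 6 genes taken with it as AP2/ERF transcription factors, 7 of the 38910 lettuce genes counted. They were picked by identifier, with their levels in these same libraries known, so their levels and fold changes are given as a description and without a test. The leaves came from 3 romaine genotypes, the experimental breeding line 60184 with a short shelf-life (SSL) and the cultivars ‘Manatee’ (intermediate shelf-life, ISL) and ‘Okeechobee’ (long shelf-life, LSL). All plants grew in pots in a chamber at 22 °C with 16 h of light a day, none was treated, and mature leaf tissue was taken before any storage. Each genotype stands for 1 line, so a difference between genotypes covers everything in which those lines differ and not shelf-life alone. There were 3 libraries for each genotype, 9 in all. The study calls the replicates biological, while the labels only number them and name no separate plants. The standard errors and p-values measure the spread between these libraries.

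Ethylene is a gaseous hormone that promotes leaf senescence and fruit ripening. In Arabidopsis, receptors such as ETR2 and ERS1 and the kinase CTR1 keep the pathway off in the absence of ethylene. When ethylene binds, the transcription factors EIN3 and EIL1 accumulate and switch on genes that include ethylene response factors (ERFs), whose AP2 domain binds DNA. EBF1 and EBF2 are F-box proteins that mark EIN3 and EIL1 for breakdown and so damp the response. Many AP2/ERF proteins answer to cold, drought, wounding or jasmonate instead, and their names do not by themselves tie them to ethylene.

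Of the 7 genes, 6 carry a description in the tables of the study. Lsat_1_v5_gn_7_45101 is described as EBF2, while its family entry names only a leucine-rich repeat. Another gene matched to EBF2, Lsat_1_v5_gn_5_95460, has EIN3-binding F-box protein as its family entry. The name EBF2 alone stands here for Lsat_1_v5_gn_7_45101. Lsat_1_v5_gn_6_92840 is described as ethylene responsive element binding factor 1, here ERF1, whose Arabidopsis match ERF1A activates genes with a GCC box. Lsat_1_v5_gn_5_186580 is matched to ERF4, in Arabidopsis a repressor that binds the same box. Its other descriptions name ethylene-responsive transcription factor 3 and a family related to transcription factor 10, so it is called ERF4 by that match alone. Lsat_1_v5_gn_2_130781, described as ERF027, and Lsat_1_v5_gn_1_46781, described as dehydration-responsive DREB3, share 1 best Arabidopsis match, the DREB-type gene TINY2. Lsat_1_v5_gn_9_20420 is matched to RAP2.7, an AP2 protein that holds back flowering in Arabidopsis. The last, Lsat_1_v5_gn_2_134301, has no description in the sources used here and is called by its identifier, with no role assigned.

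Levels are read counts per gene scaled by the TMM method to the average library, called normalised counts, and are not corrected for gene length, so they are compared between genotypes and not between genes. Gene counts ran from 24108451 to 32840811 per library. A pair of libraries stood apart from their own replicates. The counts of 60184 replicate 1 differed from those of the other two by a chi-square of 65.5 and 66.9 per degree of freedom, against 9.56 between the other two. For ‘Manatee’ replicate 2 these values were 115 and 105, against 17.7 between replicates 1 and 3. The ‘Okeechobee’ libraries differed from each other by 51.3 to 96.6. The share of reads outside annotated genes was 5.77% to 6.57% in 60184, 5.04% to 7.27% in ‘Manatee’ and 6.14% to 11.0% in ‘Okeechobee’. All 5 Rubisco small chain genes, markers of green leaf cells, had reads in every library. Their summed normalised count was 277353 to 458595 in 60184, 132449 to 191075 in ‘Manatee’ and 93332 to 233191 in ‘Okeechobee’.

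EBF2 was high in ‘Okeechobee’ and low in both other genotypes. Its normalised counts were 85.3, 91.1 and 107 in the 60184 libraries, 104, 34.1 and 53.3 in ‘Manatee’, and 1693, 2251 and 2329 in ‘Okeechobee’. The lowest ‘Okeechobee’ library lay far above the highest library of either other genotype, while 60184 and ‘Manatee’ overlapped. The means were 94.6 ± 11.4 (SD, n = 3), 63.9 ± 36.3 and 2091 ± 347. EBF2 was thus 22.1-fold higher in ‘Okeechobee’ than in 60184, or 4.46 on the log2 scale (SE 0.19). Each SE of a log2 fold change is approximate, the size of the fitted difference divided by the square root of its F statistic. Against ‘Manatee’ the fold was 32.7 and the log2 fold change 5.05 (SE 0.42). ‘Manatee’ against 60184 gave -0.56 (SE 0.41). The 9 libraries held 303, 195 and 5818 EBF2 reads in all for 60184, ‘Manatee’ and ‘Okeechobee’, so the gene was detected in each genotype. In whole leaf RNA, a change in the share of cells that express a gene and a change in its RNA per cell cannot be told apart.

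**Figure D1:**
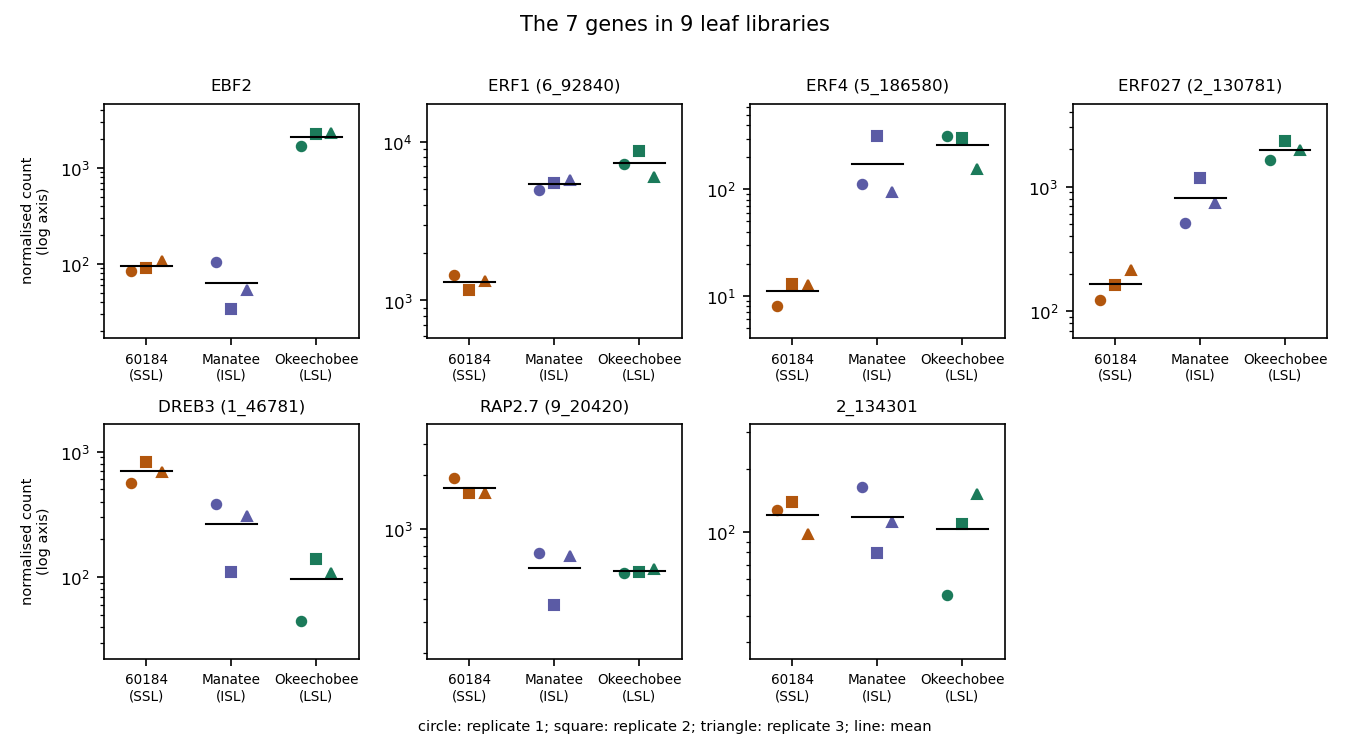
Normalised counts (log axis) of the 7 genes in the 3 libraries of each genotype, with a line at the mean and a symbol for each replicate number. EBF2 stands at 1693 to 2329 in ‘Okeechobee’ and at 34.1 to 107 in the other 6 libraries, while DREB3 and RAP2.7 stand highest in 60184.

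ERF1 and the ERF4 match were lowest in 60184 and higher in both cultivars. ERF1 had 1447, 1162 and 1319.9 normalised counts in 60184, 4952, 5461 and 5763 in ‘Manatee’, and 7222, 8676 and 5964 in ‘Okeechobee’. No 2 genotypes overlapped, and the order ran from 60184 through ‘Manatee’ to ‘Okeechobee’. The means were 1309 ± 143, 5392 ± 410.1 and 7287 ± 1357 (SD, n = 3). The log2 fold change was 2.48 (SE 0.18) for ‘Okeechobee’ against 60184, 2.05 (SE 0.13) for ‘Manatee’ against 60184 and 0.46 (SE 0.19) for ‘Okeechobee’ against ‘Manatee’. The last step was the smallest, and the cultivars were close at their extremes. The lowest ‘Okeechobee’ value, 5964, was near the highest of ‘Manatee’, 5763.

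The ERF4 match, Lsat_1_v5_gn_5_186580, was almost silent in 60184. It had 8.03, 13.0 and 12.5 normalised counts there, from 36 reads in all, against 112, 317 and 95.0 in ‘Manatee’ and 320.5, 303 and 156 in ‘Okeechobee’. Every library of both cultivars lay above every 60184 library, while the cultivars overlapped. Means were 11.2 ± 2.75, 175 ± 124 and 259.9 ± 90.0 (SD, n = 3). The log2 fold change against 60184 was 4.52 (SE 0.39) for ‘Okeechobee’ and 3.96 (SE 0.58) for ‘Manatee’, and 0.60 (SE 0.51) between the cultivars. The ‘Manatee’ mean leaned on replicate 2. Without it the log2 fold change was 3.20 against 60184, and 1.33 for ‘Okeechobee’ against ‘Manatee’.

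The 2 genes that share the TINY2 match ranked the genotypes in opposite orders. ERF027 was lowest in 60184, with 122, 164 and 216 normalised counts, against 512, 1174 and 741 in ‘Manatee’ and 1628, 2317 and 1956 in ‘Okeechobee’. No genotypes overlapped in this gene. The log2 fold change was 3.56 (SE 0.24) for ‘Okeechobee’ against 60184, 2.28 (SE 0.35) for ‘Manatee’ against 60184 and 1.31 (SE 0.30) between the cultivars. DREB3 ran the other way, with 565, 825 and 691 in 60184, 379, 109.7 and 307 in ‘Manatee’ and 44.9, 139 and 107 in ‘Okeechobee’. Both cultivars lay wholly below 60184 and overlapped each other through ‘Manatee’ replicate 2. The log2 fold change of DREB3 against 60184 was -2.84 (SE 0.38) in ‘Okeechobee’ and -1.38 (SE 0.41) in ‘Manatee’. The difference between the cultivars was -1.43 (SE 0.56), and -1.83 without ‘Manatee’ replicate 2.

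RAP2.7 separated 60184 from both cultivars, and the cultivars overlapped through ‘Manatee’ replicate 2. Its normalised counts were 1939, 1598 and 1579 in 60184, 734, 372 and 701 in ‘Manatee’, and 565, 569.6 and 592 in ‘Okeechobee’. The log2 fold change was -1.57 (SE 0.12) for ‘Okeechobee’ and -1.49 (SE 0.25) for ‘Manatee’ against 60184, that is, 0.337 and 0.353 of the 60184 mean. Between the cultivars it was -0.04 (SE 0.26). Without ‘Manatee’ replicate 2 it was -0.32, and the ‘Okeechobee’ libraries then lay wholly below the other 2 of ‘Manatee’. Among the 7 genes RAP2.7 was the steadiest in ‘Okeechobee’, with a coefficient of variation of 2.46% over the 3 libraries, against 33.3% in ‘Manatee’.

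Lsat_1_v5_gn_2_134301 was the only one of the 7 whose libraries overlapped in every pair of genotypes. It had 127, 138 and 97.5 normalised counts in 60184, 163, 79.9 and 111 in ‘Manatee’, and 49.9, 109 and 152 in ‘Okeechobee’. Its log2 fold changes were -0.23 (SE 0.40), -0.03 (SE 0.30) and -0.17 (SE 0.46), all within their standard errors. These values rest on 283 to 385 reads per genotype, and the coefficient of variation over replicates was 17.5% in 60184, 35.6% in ‘Manatee’ and 49.3% in ‘Okeechobee’.

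**Figure D2:**
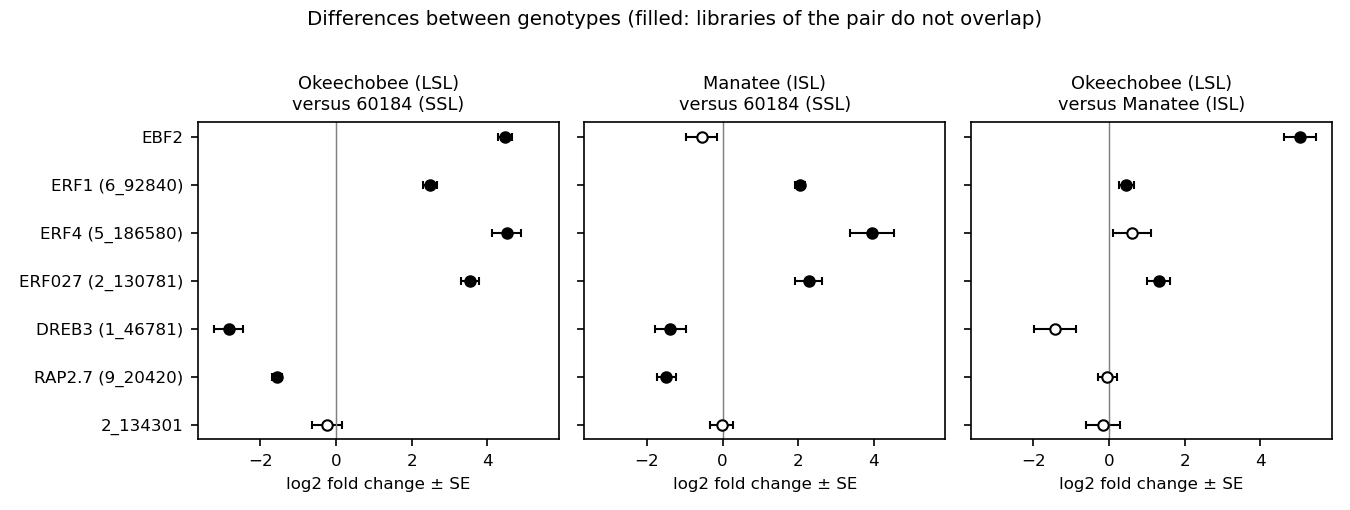
Log2 fold change, estimated by edgeR from 6 libraries each, with its approximate standard error for the 7 genes in the 3 comparisons of genotypes. EBF2 lies at 4.46 and 5.05 in the panels with ‘Okeechobee’ and at -0.56 in the other, whereas ERF1, ERF4 and ERF027 lie above 2 in both panels with 60184.

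Counted together, 6 of the 7 genes did not overlap between ‘Okeechobee’ and 60184, 4 of them higher and 2 lower in ‘Okeechobee’. Of all 22113 genes fitted in that comparison, 49.8% did not overlap, 24.7% higher and 25.2% lower in ‘Okeechobee’. Between ‘Manatee’ and 60184, 3 were higher, 2 lower and 2 overlapped, against 45.6% of all genes not overlapping (22.3% higher and 23.3% lower). Between the cultivars 3 were higher in ‘Okeechobee’, 0 lower and 4 overlapped, against 33.2% of all genes (16.5% higher and 16.7% lower). These counts follow from how the genes were picked and nothing is read from them. The first count was again 4 higher and 2 lower without 60184 replicate 1, and the second again 3 and 2 without that library or without ‘Manatee’ replicate 2. Without ‘Manatee’ replicate 2 the comparison of the cultivars changed to 4 higher, 2 lower and 1 overlapping, with 49.4% of all genes not overlapping. The 3 comparisons share libraries, so they are not separate pieces of evidence.

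The spread between replicates of these genes was widest in ‘Manatee’. There the median coefficient of variation over the 7 genes was 41.5%, and 6 of the 7 lay above the 17.9% that was the median of all genes. In 60184 the values were 17.5% and 13.7%, and in ‘Okeechobee’ 18.6% and 18.9%. ‘Manatee’ replicate 2 was the lowest of its genotype for EBF2, DREB3, RAP2.7 and Lsat_1_v5_gn_2_134301 and the highest for ERF4 and ERF027. In ‘Okeechobee’, replicate 1 was the lowest library for 5 of the 7.

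The rest of the ethylene pathway was read from 8 further genes with a description, among them another gene matched to EBF2. All 8 were tested with edgeR’s quasi-likelihood F test, with p adjusted over all genes by the Benjamini-Hochberg method and 0.05 as the threshold. In ‘Okeechobee’ against 60184, 6 of the 8 rose and 0 fell, with a median log2 fold change of 1.76 against 0.0066 over all genes, of which 31.5% passed (16.2% higher and 15.3% lower). Leaving out any 1 of the 6 libraries left the count at 6. Descriptions were available for 3733 genes and came from tables that the study selected or ordered on these libraries, so a described gene is more likely to pass. Of the described genes, 76.5% passed in this comparison, 64.5% in ‘Manatee’ against 60184 and 21.8% between the cultivars. In ‘Okeechobee’ against 60184, 1662 described genes rose and 1190 fell, with a median log2 fold change of 0.41. The tally of this list, and of the AP2/ERF list that follows, is therefore not independent evidence of a direction.

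Both other EIN3-binding F-box genes rose in ‘Okeechobee’ as well, by smaller folds than that of EBF2. EBF1 (Lsat_1_v5_gn_1_43380) had 4101, 3391 and 3594 normalised counts in 60184, 3353, 3029 and 3244 in ‘Manatee’, and 11393, 12177 and 9378 in ‘Okeechobee’. The ‘Okeechobee’ libraries lay above all others, and unlike for EBF2 the ‘Manatee’ libraries lay just below those of 60184 without overlap. The log2 fold change of EBF1 was 1.57 (SE 0.16, adjusted p = 0.00059) against 60184 and 1.80 (SE 0.17, adjusted p = 0.0022) against ‘Manatee’, and -0.19 (adjusted p = 0.28) for ‘Manatee’ against 60184. The other gene matched to EBF2, Lsat_1_v5_gn_5_95460, had means of 4819.9 ± 1214, 5954 ± 449 and 10769 ± 1665 (SD, n = 3). It was 2.23-fold higher in ‘Okeechobee’ than in 60184 (adjusted p = 0.0066) and 1.81-fold higher than in ‘Manatee’ (adjusted p = 0.033). The latter passed in 0 of the 6 fits with 1 library left out (adjusted p up to 0.14), whereas EBF1 passed in all 6. Reads shared between near-identical copies would not be counted as unique, and how far this touches the EBF genes was not tested.

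The receptors and the genes that act beside them rose as well. ETR2, an ethylene receptor, rose from 1165 ± 179.9 in 60184 to 2603 ± 169 in ‘Manatee’ and 4818 ± 742 in ‘Okeechobee’ (SD, n = 3), with a log2 fold change of 2.05 (adjusted p = 0.00027) for ‘Okeechobee’ and 1.17 (adjusted p = 0.0022) for ‘Manatee’ against 60184. ERS1, also a receptor, was 3.85-fold higher in ‘Okeechobee’ (adjusted p = 0.00035) and 1.51-fold higher in ‘Manatee’ (adjusted p = 0.014) than in 60184. Both receptors were also higher in ‘Okeechobee’ than in ‘Manatee’, by 0.92 (adjusted p = 0.021) and 1.38 (adjusted p = 0.0088) on the log2 scale. The former passed in 2 of the 6 fits with 1 library left out (adjusted p up to 0.11), those without ‘Manatee’ replicate 2 or ‘Okeechobee’ replicate 2, and the latter in 5, all but the fit without ‘Manatee’ replicate 3. The ARGOS-related gene Lsat_1_v5_gn_1_77140, whose Arabidopsis relatives lower ethylene sensitivity, was also highest in ‘Okeechobee’. It stood at 807, 755 and 811 in 60184, 753, 436 and 677 in ‘Manatee’, and 2547, 4304 and 3807 in ‘Okeechobee’, a log2 fold change of 2.17 (adjusted p = 0.00037) against 60184 and 2.54 (adjusted p = 0.0039) against ‘Manatee’. The ‘Manatee’ libraries lay below those of 60184 without overlap, with a log2 fold change of -0.34 (adjusted p = 0.25). The CTR1 match rose by 2.67 (adjusted p = 0.00034) in ‘Okeechobee’ against 60184. In ‘Manatee’ its level was set by 1 library, with 884, 2686 and 786 normalised counts, and the difference from ‘Okeechobee’ was 0.90 (adjusted p = 0.27). ETR2 in ‘Manatee’ against 60184 passed whichever library was left out, while ERS1 and CTR1 passed there only with all 3 libraries of 60184 present (adjusted p up to 0.079 and 0.15 otherwise).

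The other 2 described genes did not pass in ‘Okeechobee’ against 60184. The ACC synthase, which makes the precursor of ethylene, differed by -0.27 on the log2 scale (adjusted p = 0.53), and the gene described as ETHYLENE INSENSITIVE 3-LIKE 3, whose Arabidopsis counterpart acts in the response to sulfur, by -0.17 (adjusted p = 0.34). In ‘Manatee’ against 60184, where 18.9% of all genes passed (10.3% higher and 8.6% lower), 3 of the 8 rose (ETR2, ERS1 and CTR1), the EIN3-LIKE 3 gene fell by 0.49 (adjusted p = 0.020, up to 0.086 with 1 library left out) and 4 did not pass. That count of 4 was 2 without 60184 replicate 1 and 1 without replicate 2 or replicate 3 of 60184. Between the cultivars, where 8.28% of all genes passed (4.54% higher and 3.74% lower), 5 of the 8 rose in ‘Okeechobee’, 0 fell and 3 did not pass. That count was 3 without ‘Manatee’ replicate 1, ‘Okeechobee’ replicate 1 or ‘Okeechobee’ replicate 3, and 2 without ‘Manatee’ replicate 3. All 4 genes described as ACC oxidase homologs passed in ‘Okeechobee’ against 60184, 2 higher and 2 lower. Their descriptions also name other enzymes of the oxygenase family.

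**Figure D3:**
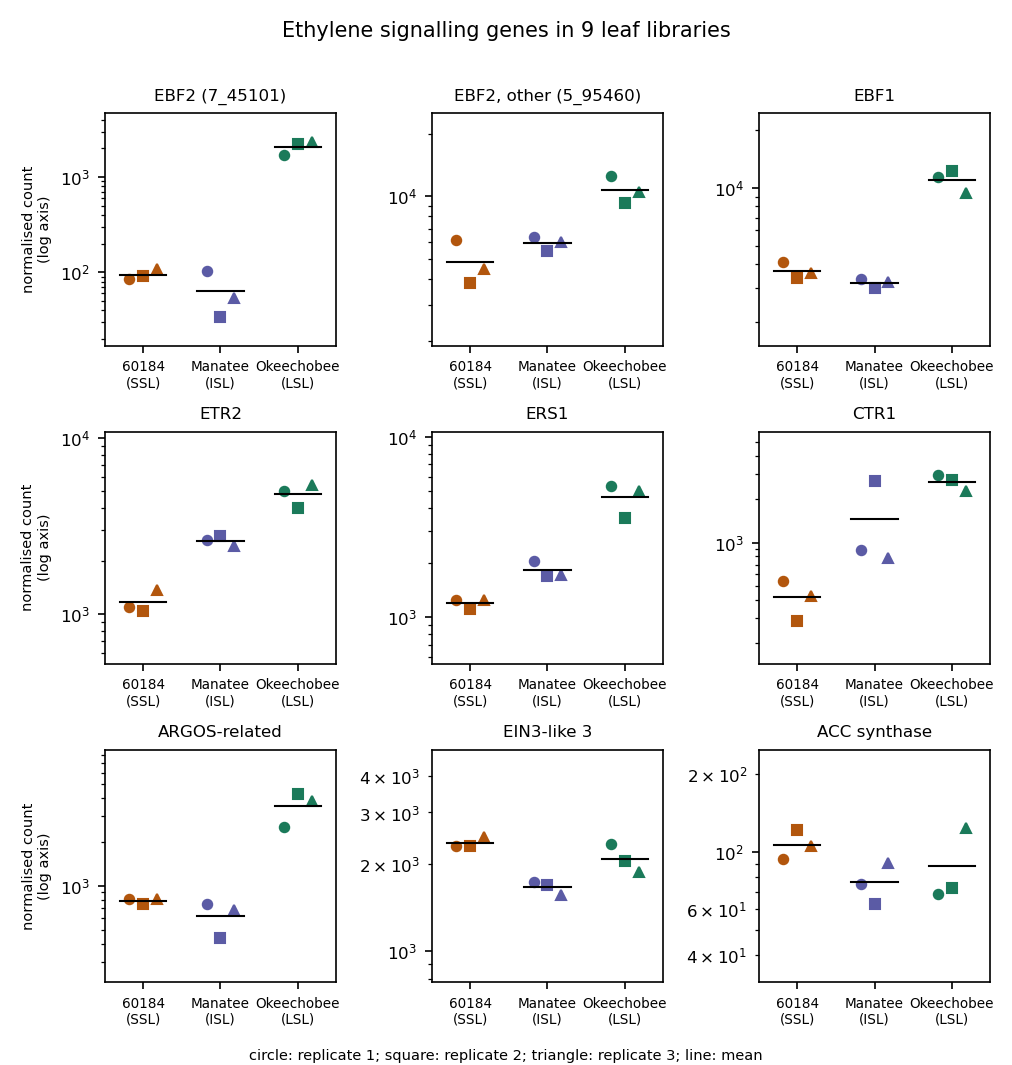
Normalised counts (log axis) of EBF2 and 8 other described ethylene pathway genes in the 9 libraries, with a line at each mean. EBF2, EBF1 and the ARGOS-related gene stand highest in the 3 ‘Okeechobee’ libraries, while ETR2 has means of 1165, 2603 and 4818.

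Genes with the same Arabidopsis match as a member did not always follow it. Lsat_1_v5_gn_6_92860, also matched to ERF1A, had 30.1, 32.5 and 39.3 normalised counts in 60184, 135, 65.0 and 123 in ‘Manatee’ and 262, 148 and 205 in ‘Okeechobee’. As for ERF1, both cultivars lay above 60184, with a log2 fold change of 2.59 (adjusted p = 0.00080) for ‘Okeechobee’ and 1.67 (adjusted p = 0.017) for ‘Manatee’. The latter passed in 1 of the 6 fits with 1 library left out, the fit without ‘Manatee’ replicate 2 (adjusted p up to 0.077). This gene is next to ERF1 in the numbering of lettuce genes, so reads of the 2 copies may be hard to separate. The other gene matched to ERF4, Lsat_1_v5_gn_7_104600, is ERF4 by both its match and its product name. It ranked the genotypes the other way from Lsat_1_v5_gn_5_186580. It had 284, 231 and 172 normalised counts in 60184, 209, 26.6 and 199 in ‘Manatee’ and 35.9, 28.4 and 56.5 in ‘Okeechobee’, and fell by 2.51 (SE 0.33, adjusted p = 0.0015) on the log2 scale in ‘Okeechobee’ against 60184. In ‘Manatee’ against 60184 its log2 fold change was -0.65 (adjusted p = 0.49). ‘Manatee’ replicate 2, the library with the most reads of Lsat_1_v5_gn_5_186580 in that genotype, had the fewest of Lsat_1_v5_gn_7_104600.

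**Figure D4:**
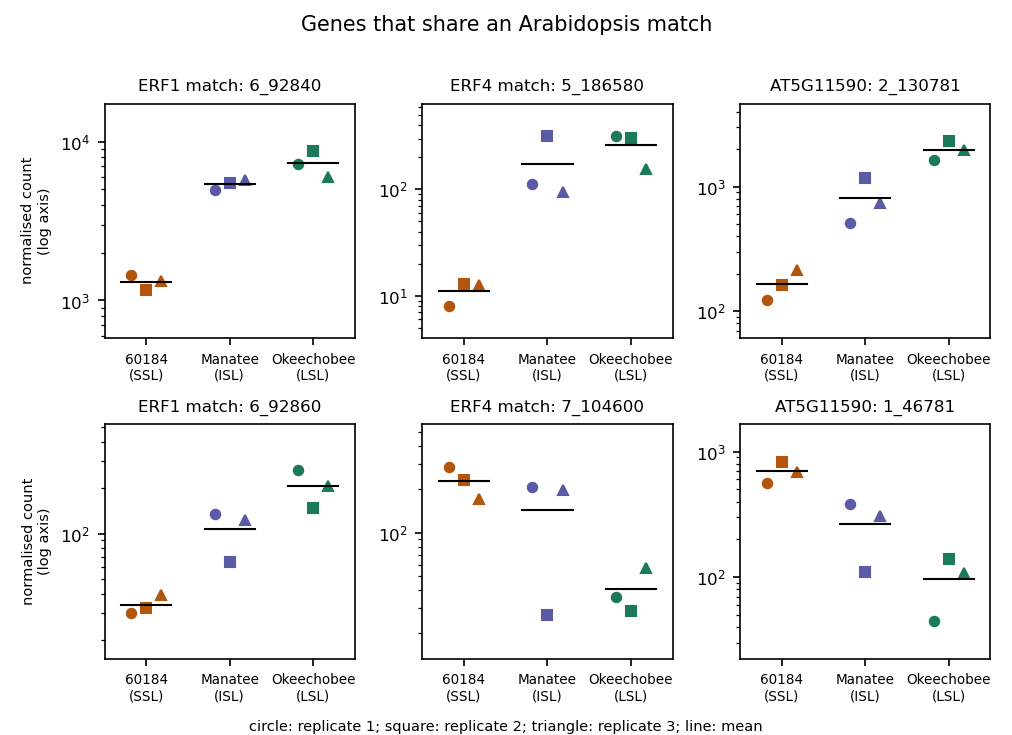
Normalised counts (log axis) by library for 3 pairs of genes that share an Arabidopsis match of the ERF or DREB type, 1 pair in each column, with a line at each mean. Both ERF1 matches stand lowest in 60184, while in the ERF4 and TINY2 columns the upper gene stands lowest and the lower gene highest in 60184.

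The described AP2/ERF genes outside the 7 numbered 57, and more of them fell than rose in ‘Okeechobee’ against 60184. Of these 57 genes, 13 rose, 26 fell and 18 did not pass in this comparison, and their median log2 fold change was -0.50. That is 68.4% passing, against 31.5% of all genes (16.2% higher and 15.3% lower) and 76.5% of described genes. Of the 3728 described genes tested, 1662 rose and 1190 fell, with a median of 0.41. In the ERF class 6 of 21 rose and 10 fell, among the other DREB genes 2 of 10 rose and 4 fell, and of the cold-responsive CBF type 4 of 8 rose and 4 fell. None of the 4 SHINE genes, known in Arabidopsis for the control of cuticle wax, and none of the 5 cytokinin response factor (CRF) and CRF-related genes rose, while 3 of each fell. Among the CRF-related genes that fell, Lsat_1_v5_gn_1_4460 carries a CRF5-related family name, while its Arabidopsis match is described as related to AP2 4. In ‘Manatee’ against 60184, 53 were tested, 22 rose and 11 fell, although the median was -0.22. Of all genes 18.9% passed there (10.3% higher and 8.6% lower), and of 3674 described genes tested 1370 rose and 1001 fell. The DREB genes other than CBF rose there in 8 of 10 cases and fell in 1. That total of 33 was 15 without replicate 1 or replicate 2 of 60184, 16 without its replicate 3 and 21 without ‘Manatee’ replicate 3. Of all genes 8.28% passed between the cultivars (4.54% higher and 3.74% lower), and of 3652 described genes tested 427 rose and 369 fell. Of the 57 AP2/ERF genes, 4 rose in ‘Okeechobee’ against ‘Manatee’, 14 fell and 39 did not pass, with a median of -0.80. This total of 18 was 5 without ‘Manatee’ replicate 1, 4 without its replicate 3, 10 without ‘Okeechobee’ replicate 1 and 7 without its replicate 2.

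Single AP2/ERF genes with the smallest p included 4 that fell and 2 that rose in ‘Okeechobee’ against 60184. ERF9 (Lsat_1_v5_gn_7_22540), like ERF4 a repressor in Arabidopsis, fell by 2.90 (adjusted p = 0.00034) on the log2 scale against 60184. The CRF4 match Lsat_1_v5_gn_5_177360 fell by 2.47 (adjusted p = 0.00027), and the ERF5-type gene Lsat_1_v5_gn_9_50700 by 2.47 (adjusted p = 0.00055). ERF109 (Lsat_1_v5_gn_5_112660), in Arabidopsis a redox-responsive factor, fell by 2.88 (adjusted p = 0.00051) in ‘Okeechobee’ but rose by 1.17 (adjusted p = 0.012) in ‘Manatee’, and the cultivars differed by -4.01 (adjusted p = 0.00063). The call in ‘Manatee’ passed in 4 of the 6 fits with 1 library left out and was lost without 60184 replicate 2 or 3 (edgeR adjusted p up to 0.058). Lsat_1_v5_gn_9_41960, called ABR1 in its description but not by its Arabidopsis match, rose from a mean of 6.75 in 60184 to 253 in ‘Okeechobee’. Its log2 fold change was 5.19 (adjusted p = 0.00044). The ERF026 gene beside ERF027 also rose. Apart from Lsat_1_v5_gn_1_4460, which was not followed through these fits, 16 genes of the ethylene pathway and AP2/ERF family are named as passing here. All 16 passed in every fit with 1 library left out that tested them. In ‘Manatee’ the smallest p in the family belonged to the CBF4 match Lsat_1_v5_gn_2_130641, a cold or drought response factor, which rose by 4.13 (adjusted p = 8.1e-05). Of the other 5 in that comparison all rose, among them the ERF025-related gene Lsat_1_v5_gn_6_13121 (3.07, adjusted p = 0.00012) and a second gene described as ERF027, Lsat_1_v5_gn_3_5680 (3.51, adjusted p = 0.00088). Between the cultivars all 6 with the smallest p fell in ‘Okeechobee’, among them the ERF018-type gene Lsat_1_v5_gn_7_35201 (-2.73, adjusted p = 0.0072).

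**Figure D5:**
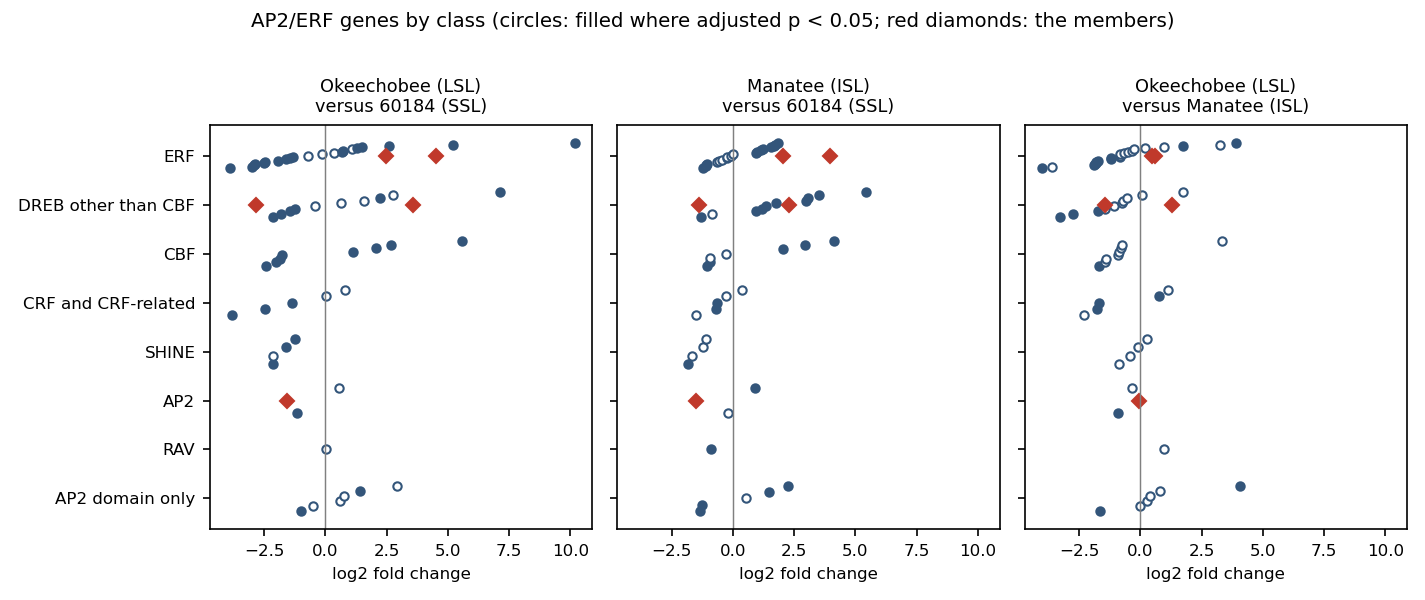
Log2 fold change of each tested AP2/ERF gene by class in the 3 comparisons, with filled circles for genes that passed and red diamonds for ERF1, ERF4, ERF027, DREB3 and RAP2.7. More filled circles lie below 0 (26) than above (13) in ‘Okeechobee’ against 60184, where the diamonds of ERF1, ERF4 and ERF027 lie above 2.

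Around the members, the 5 genes on each side in the numbering of the chromosome gave 70 neighbours, of which 37 were tested in ‘Okeechobee’ against 60184. Of these 10 rose and 9 fell, 51.4% against 31.5% of all genes. This count of 19 was 9, 8 and 12 without replicate 1, 2 or 3 of 60184 and 8 without ‘Okeechobee’ replicate 2, and it holds neighbours of the AP2/ERF family. Beside ERF1 lay 3 more genes of the ERF class. Lsat_1_v5_gn_6_92860 and the ERF2 match Lsat_1_v5_gn_6_92940 rose, the latter by 1.51 (adjusted p = 0.0020), whereas the ERF5 match Lsat_1_v5_gn_6_92761 fell by 1.94 (adjusted p = 0.0017). Beside ERF027 lay the ERF026 gene Lsat_1_v5_gn_2_130880, with 9 reads in all 3 libraries of 60184 together. It had 57.0, 279 and 41.7 normalised counts in ‘Manatee’ and 659, 264 and 316 in ‘Okeechobee’, a log2 fold change of 7.14 (adjusted p = 0.00044) against 60184. The gene after it, Lsat_1_v5_gn_2_130960, is described as a calcium-dependent protein kinase and is not of the AP2/ERF family. It rose by 14.0 (adjusted p = 3.2e-05) in ‘Okeechobee’ and 13.7 (adjusted p = 0.00018) in ‘Manatee’ against 60184. Of the tested neighbours of ERF027, 2 of 2 rose in ‘Okeechobee’ and 3 of 3 in ‘Manatee’ against 60184. Of the 6 tested neighbours of EBF2, 0 rose, 3 fell and 3 did not pass in ‘Okeechobee’ against 60184. Over all members, 8 neighbours rose and 3 fell in ‘Manatee’ against 60184 (28.2% of 39 tested), a total of 11 that was 4 without any 1 of the 60184 libraries and 5 without ‘Manatee’ replicate 3. Between the cultivars 2 rose and 0 fell (5.41% of 37), and with 1 library left out these totals were 0 to 4.

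Likeness of level was measured over the 9 libraries as the root mean square difference between log2 CPM profiles, each centred on its own mean, and it is a description over libraries that share genotypes. Among the members themselves ERF1 and ERF027 were closest (0.61), followed by ERF4 and ERF027 (0.68), and EBF2 and DREB3 were the most unlike (3.31). The described gene closest to EBF2 was the disease resistance gene Lsat_1_v5_gn_0_19660 of the NB-ARC type (0.36), with means of 12.5, 7.22 and 221 in 60184, ‘Manatee’ and ‘Okeechobee’. The next described genes for EBF2 were another NB-ARC gene and a gene for a translationally controlled tumor protein, both with 0 reads in 60184 and ‘Manatee’. Closest to ERF1 was Lsat_1_v5_gn_5_51660, described as a Mediator subunit 15a (0.24), and closest to ERF027 was the MYB17 match Lsat_1_v5_gn_2_131920 (0.26). For ERF4 a receptor-like kinase with an S-locus domain came first (0.34) and the jasmonate repressor gene JAZ1, Lsat_1_v5_gn_5_137041, came next (0.42), with means of 219, 2814 and 4778. For DREB3 the nearest described genes were the protein kinase gene Lsat_1_v5_gn_2_67541 (0.33), then the matches of stomagen (0.39) and ICE1 (0.40), both known from stomata in Arabidopsis. These genes ranked 2, 6 and 7 among all genes. RAP2.7 was closest to the alfin-like 5 gene Lsat_1_v5_gn_2_18880 (0.12). Among described genes, Lsat_1_v5_gn_2_134301 was closest to Lsat_1_v5_gn_3_58041 (0.20, rank 4 among all genes), described as related to a sterol regulatory protein.

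Markers of cell types also differed between genotypes. Of the 5 Rubisco small chain genes, 3 fell in ‘Okeechobee’ and 5 in ‘Manatee’ against 60184. The phloem gene PP2-A1 stood at 333 to 356 in 60184, 31.9 to 75.4 in ‘Manatee’ and 30.0 to 94.1 in ‘Okeechobee’, and fell by 2.58 (adjusted p = 0.0024) in ‘Okeechobee’. A gene described only as a 3-ketoacyl-CoA synthase, taken as an epidermal marker, rose by 0.85 (adjusted p = 0.0091) in ‘Okeechobee’ and 1.22 (adjusted p = 0.0017) in ‘Manatee’. The SHINE genes of cuticle wax went the other way in ‘Okeechobee’, where 0 of 4 rose and 3 fell. The flower gene PISTILLATA had 825 normalised counts in 60184 replicate 1 and 28.6 to 119 in the other 8 libraries. No marker was at 0 in any library. The part of these differences in the levels of the 7 genes was not tested. Leaving out 60184 replicate 1 removes the library high in PISTILLATA and does not address the other markers. For EBF2, ERF1, ERF4, ERF027, DREB3 and RAP2.7, the log2 fold changes for ‘Okeechobee’ against 60184 were then 4.39, 2.55, 4.33, 3.37, -2.98 and -1.47.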

How the data were processed

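RNA-seq of mature leaf was analysed in 9 libraries, 3 for each genotype, grouped by the labels. Per the labels and the methods of the study, the authors trimmed and mapped the reads with STAR to the v5 lettuce genome, and counted uniquely mapped reads per gene with HTSeq after removal of PCR duplicates, and they deposited raw counts. The lines for reads outside genes, ambiguous or not unique held 9.98% to 20.4% of a library and were left out. Python 3.11.15 with pandas 2.3.3 read the tables. Each comparison was fitted to its 6 libraries with edgeR 4.0.16 under R 4.3.3 (TMM, robust quasi-likelihood F test), keeping genes that reached 10 counts in 3 or more libraries. A gene rose or fell where its Benjamini-Hochberg adjusted p, over all genes, was under 0.05. The study used DESeq2, here an alternative (1.42.0). Log2 CPM had a prior count of 2. The fit was tested on simulated counts. Figures were drawn with matplotlib 3.10.9.

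The members and gene lists were chosen with earlier results of these data known. Named genes are the 7 members, every ethylene pathway gene, AP2/ERF genes with a member's Arabidopsis match, up to 6 others with the smallest p in each comparison (of which examples are given), and for each member the 3 described genes of most alike profile, together with genes beside members, which were named after their values were seen. Lsat_1_v5_gn_1_4460 was named outside these rules. Descriptions were read from the tables of the study, in copies that hold some of its genes. A planned split of the lists by descriptions not selected on a difference was void, because those copies are ordered by differences: of 1091 genes described only among those expressed in both genotypes, 98.6% passed in ‘Manatee’ against 60184. The identifiers of the v5 genome had 0 matches in the RefSeq table, so sequences and coordinates were not used here. The alternatives were DESeq2, DESeq2 size factors, library size only, no filter, a filter at 1 CPM, all 9 libraries in 1 model, a replicate block and each library left out. Counts of members that do not overlap were repeated without 60184 replicate 1 or ‘Manatee’ replicate 2, chosen after seeing the data. With 24108451 to 32840811 counts per library, genes with few reads, such as ERF4 in 60184, are the least precise.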

Additional observations from a re-analysis of the deposited data

How the results depend on the processing

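For the 7 members, every one of the 21 mean levels moved by less than the spread between replicates under library size only, and 272 of 273 recomputed log2 fold changes did so too. The exception was ERF4 (Lsat_1_v5_gn_5_186580) in ‘Manatee’ against 60184, at 3.20 without ‘Manatee’ replicate 2. Without that library, 6 members did not overlap between the cultivars. With 1 library left out, the genes that passed numbered 4073 to 6858 in ‘Okeechobee’ against 60184 (6969 with all), 1232 to 4381 in ‘Manatee’ against 60184 (4176) and 430 to 2152 between the cultivars (1817). The same ranges were 29 to 38, 15 to 32 and 4 to 24 for the AP2/ERF genes, 6 to 6, 1 to 4 and 2 to 5 for the ethylene pathway genes, and 8 to 16, 4 to 10 and 0 to 4 for the neighbours. Between the cultivars DESeq2 passed 3654 genes and all 9 libraries in 1 model 3129, each with 5 neighbours, against 1 neighbour with DESeq2 size factors, library size only, no filter or the 1 CPM filter.

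Correlations between the deviations of same-numbered libraries ran from -0.30 to 0.28, and those of unlike numbers from -0.42 to 0.50. The highest was between ‘Okeechobee’ replicate 1 and ‘Manatee’ replicate 2. With 3 libraries per genotype, these values cannot decide whether the numbers pair the libraries. With the replicate number as a block, 2320 genes passed in ‘Manatee’ against 60184, 2 of them in the ethylene pathway. Between the cultivars the block passed 596 genes, 10 AP2/ERF genes, 3 ethylene pathway genes and 1 neighbour. The cause of these shifts was not tested. Apart from Lsat_1_v5_gn_1_4460, which was not followed, all 16 named ethylene pathway and AP2/ERF genes that passed in ‘Okeechobee’ against 60184 passed in every alternative that tested them. In ‘Manatee’ against 60184 this held for 8 of 14 with a library left out and 11 of 14 under the other settings, and between the cultivars for 5 of 11 and 9 of 11. None of these 41 calls changed direction in those fits.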
